A study of Mus musculus with 12 samples.

Results

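Nova, Rbfox, Mbnl and Ptbp proteins bind pre-mRNA and decide which alternative exons are kept. Nova proteins recognise clusters of YCAY, Rbfox proteins bind UGCAUG, Mbnl proteins bind YGCY repeats and Ptb proteins bind pyrimidine-rich tracts. In the developing brain Ptbp1 gives way to its neuronal paralog Ptbp2, and Rbfox3, also known as the antigen NeuN, marks most mature neurons. Nova and Mbnl proteins have also been linked to the choice of the PAS, the site where a pre-mRNA is cleaved and polyadenylated. APA, the use of alternative PASs, in their own genes determines which 3′UTR, and thus which binding sites for miRNAs and RNA-binding proteins, their mRNAs carry.

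The genes described are *Nova1*, *Nova2*, *Rbfox1*, *Rbfox2*, *Rbfox3*, *Mbnl1*, *Mbnl2*, *Ptbp1* and *Ptbp2*, 9 of the 16627 genes in a list of PASs from mouse hippocampal slices. They were chosen by gene symbol, and every PAS listed under these symbols was taken, 29 of 56204 entries. The series asked how APA changes after LTP, a lasting increase in synaptic strength, and its 12 libraries were made by 3′READS+, which sequences the 3′ ends of polyadenylated transcripts. The slices came from C57BL/6 wild-type mice labelled 3 months old, with the dentate gyrus trimmed, and slices of the same animal were divided between treatments. For LTP, slices received 50 μM forskolin, an activator of adenylyl cyclase, for 5 min, and then forskolin with 30 mM KCl and 10 mM Ca2+ for another 5 min. For controls, the solution held 0.2% DMSO over the same 10 min. Tissue was frozen 1 hr or 3 hr later, and each of the 4 groups, control and LTP at either time, holds 3 animals. The paper left a control library at 3 hr out of its APA analysis as an outlier in clustering. The list used here was taken as a whole.

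The results below concern where the PASs of these genes lie, not how often they were used. The 12 columns of read counts carry names that match no sample label, so they were given to no sample and were not analysed here. No expression level, depth, replicate error or difference between LTP and control slices is therefore given, and the labelled tissue was not checked against marker genes. A single list serves every library, and a PAS in it may rest on few or on many reads. How many PASs a gene has in such a list can depend on how many of its reads were sequenced, and this dependence was not tested.

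All 9 genes had at least 2 PASs labelled exon3, taken here as the 3′-most exon, the minimum for 3′UTR APA. Among all listed genes with an exon3 PAS, 49.5% had 2 or more. In 7 of the 9 genes the exon3 PASs were the only ones listed, against 49.8% of all listed genes and 55.0% of those with an exon3 PAS. Entries labelled exon3 made up 27 of the 29 entries, against 55.7% of the whole list. The exceptions were *Nova1*, with 1 intronic PAS, and *Ptbp1*, with 1 PAS on the opposite strand. None of the 9 genes had a PAS labelled exon3ext, taken from its name as a site beyond the annotated gene end. Such a PAS was listed for 12.2% of all listed genes, so its absence from 9 genes is near the background. The number of exon3 PASs was 2 in *Nova1*, *Rbfox3*, *Mbnl1* and *Ptbp1*, 3 in *Rbfox1* and *Ptbp2*, 4 in *Nova2* and *Rbfox2*, and 5 in *Mbnl2*. Thus 5 of the 9 genes (55.6%) had 3 or more, against 26.4% of all genes with an exon3 PAS. These counts are descriptions of a list in which each site was called once for all libraries, and no test was made of them.

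Where the exon3 PASs of a gene lie in the same 3′UTR, the stretch between the outermost ones is the part that the choice of PAS can add or remove. This was not checked against 3′UTR coordinates. Over all genes the longest gap between neighbouring exon3 PASs was 332360 nt, so some measured spans may not be a single 3′UTR. The span ranged from 74 nt in *Ptbp1* to 6366 nt in *Nova2*, an 86.0-fold range. The median over the 9 genes was 1619 nt, and 7 of them lay above the median of 817 nt over the 7465 genes for which a span could be measured. Spans over 2000 nt occurred in 4 of the 9 genes, *Nova1*, *Nova2*, *Rbfox2* and *Rbfox3*, against 21.0% of all genes measured. Both *Ptbp* genes lay at the opposite end, below the lower quartile of 258 nt. Among the 9 genes, both *Nova* spans were thus long and both *Ptbp* spans short, while the *Rbfox* genes were spread over the range. This does not extend to the whole *Ptbp* family, since the paralog *Ptbp3*, described below, spanned 3382 nt.

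**Figure D1:**
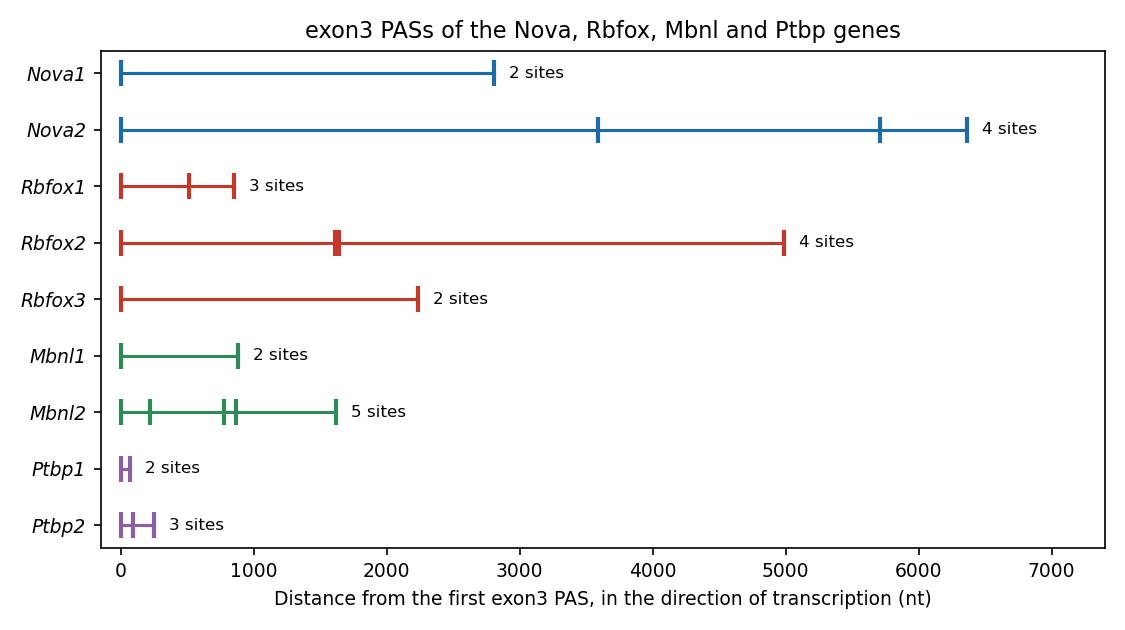
Positions of the exon3 PASs of the 9 genes (rows), as the distance in nt from the first exon3 PAS of each gene in the direction of transcription. Each tick is a PAS, each line joins the outermost ones, and colours mark the 4 families. *Nova2* reaches 6366 nt and *Rbfox2* 4988 nt, whereas the PASs of *Ptbp1* lie 74 nt apart.

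*Nova1* (Ensembl identifier ENSMUSG00000021047.7) and *Nova2* (ENSMUSG00000030411.16) encode KH-domain proteins that regulate the splicing of synaptic transcripts. *Nova1* lies on the minus strand of chromosome 12. Its exon3 PASs were at 47798885 and 47796078, positions being those of the list, whose genome build is mm9 per the submitters' processing notes. They were 2807 nt apart, and 88.5% of the genes measured had a shorter span. *Nova2*, on the plus strand of chromosome 7, had exon3 PASs at 19544302, 19547891, 19550013 and 19550668. Successive sites were 3589, 2122 and 655 nt apart, so the gaps became shorter along the transcript. The gap of 3589 nt was the longest among the 18 gaps between neighbouring exon3 PASs of the 9 genes. The whole span of *Nova2* was 2.27 times that of *Nova1*, and 98.6% of the genes measured had a shorter one.

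*Nova1* was the only one of the 9 genes with an intronic PAS. An intronic PAS can give an mRNA with a different last exon and a different coding sequence. This PAS lay at 47836904 and carried the label intron_Comp, one of 2 intronic labels in the list, taken from its name as the composite type, in which an exon extends into the intron. It was 38019 nt upstream of the first exon3 PAS and 40826 nt upstream of the last. In the 4853 genes with an intronic PAS upstream of their last exon3 PAS, the farthest one lay a median of 20363 nt before it, and 68.8% of these genes had a shorter distance than *Nova1*. Intronic PASs were listed for 33.5% of all genes. Over the entries with an intronic or exon3 label, intronic entries were 1 of 28 in the 9 genes, or 3.57% (95% Wilson interval 0.633 to 17.7%), against 32.7% in the whole list. The interval covers counting error only and treats sites of the same gene as separate, which they are not. The paper counted fewer PASs, in fewer genes, and placed a much smaller share of them in introns. That smaller share lies inside the interval given above, so no difference from it can be read from these counts. The paper's statistics of PASs name a cutoff on reads and relative abundance, whereas the list was taken here without one. The intronic share of the whole list is therefore not the paper's. Whether the difference from the 9 genes would remain under such a cutoff was not tested.

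*Rbfox1* (ENSMUSG00000008658.16), *Rbfox2* (ENSMUSG00000033565.18) and *Rbfox3* (ENSMUSG00000025576.17) encode proteins with an RNA recognition motif of nearly the same sequence. Their listed 3′ ends were arranged differently. *Rbfox1*, on the plus strand of chromosome 16, had PASs at 7411719, 7412231 and 7412573, in steps of 512 and 342 nt. Its span of 854 nt was close to the median of all genes, with 51.1% of them shorter. *Rbfox2*, on the minus strand of chromosome 15, had PASs at 76914408, 76912793, 76912768 and 76909420. The middle pair was 25 nt apart, next to the 24 nt within which the authors clustered sites, while 1615 nt separated it from the first PAS and 3348 nt from the last. *Rbfox2* thus offered 3 well separated positions, spanning 4988 nt, longer than in 97.1% of the genes measured. *Rbfox3*, on the minus strand of chromosome 11, had PASs at 118353308 and 118351070, 2238 nt apart, and 82.4% of the genes measured had a shorter span. Within the family the longest span was 5.84 times the shortest.

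The genome beyond *Rbfox3* was also occupied. The last PAS of *Engase*, which is transcribed from the opposite strand, lay at 118350523, only 547 nt past the last PAS of *Rbfox3*, so the listed 3′ ends of both genes faced each other. The nearest site of another gene downstream of *Rbfox2* was 21882 nt away, in *Apol6*. For *Rbfox1* the distance was 996769 nt, and for *Nova1* it was 1839870 nt, the longest among the 9 genes. Downstream sites of other genes within 1000 nt were found for 2 of the 9 genes, *Rbfox3* and *Ptbp1*, and in the other 7 genes the distance was at least 21882 nt. Over the 16622 genes listed on a single strand, 9.89% had such a site within 1000 nt, and with 9 genes nothing is read from this difference.

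*Mbnl1* (ENSMUSG00000027763.13) and *Mbnl2* (ENSMUSG00000022139.17) encode the muscleblind proteins, zinc finger proteins known for their sequestration by expanded CUG repeats in myotonic dystrophy. *Mbnl1*, on the plus strand of chromosome 3, had PASs at 60432786 and 60433670, 884 nt apart, and 52.0% of the genes measured had a shorter span. *Mbnl2*, on the plus strand of chromosome 14, had the most exon3 PASs of the 9 genes, at 120829301, 120829519, 120830076, 120830165 and 120830920. The steps were 218, 557, 89 and 755 nt, and the span of 1619 nt was longer than in 71.9% of the genes measured. Only 7.85% of all genes with an exon3 PAS had 5 or more. As listed, *Mbnl2* therefore had more PASs than *Nova2* or *Rbfox2* within a much shorter stretch. This counts the PASs 89 nt apart as separate. With sites within 100 nt joined, *Mbnl2* no longer had more than *Nova2*.

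*Ptbp1* (ENSMUSG00000006498.16) and *Ptbp2* (ENSMUSG00000028134.11) encode polypyrimidine tract binding proteins, which mostly repress exons. Their exon3 spans were the shortest of the 9 genes. *Ptbp1*, on the plus strand of chromosome 10, had PASs at 79327106 and 79327180, 74 nt apart, and only 9.16% of the genes measured had a shorter span. *Ptbp2*, on the minus strand of chromosome 3, had PASs at 119421912, 119421822 and 119421659. The steps were 90 and 163 nt, and the span of 253 nt was longer than in 24.5% of the genes measured. When exon3 PASs within 100 nt of each other were joined, *Ptbp1* was left with 1 PAS and was the only one of the 9 genes that no longer had 2 exon3 PASs.

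*Ptbp1* was also the only one of the 9 genes with a PAS labelled UA, taken from its name as upstream antisense. A UA site was listed for 13.8% of all genes, so a count of 1 in 9 is near the background. The site is named on the minus strand, opposite to *Ptbp1*, and lay at 79316502, 10678 nt upstream of the last exon3 PAS. The median of this distance was 24204 nt over the 1973 genes in which it could be measured. The same site is also listed under the minus-strand gene *E130317F20Rik*, with the label exon53, together with 4 further sites of that gene. Whether transcripts ending there belong to *E130317F20Rik* or to antisense transcription from the *Ptbp1* promoter cannot be told apart from the list. It was the only one of the 29 PASs that stood under more than 1 gene. Past the other end of *Ptbp1*, a PAS of the minus-strand gene *BC005764*, labelled intron_Comp, lay at 79327526, 346 nt beyond the last *Ptbp1* PAS.

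**Figure D2:**
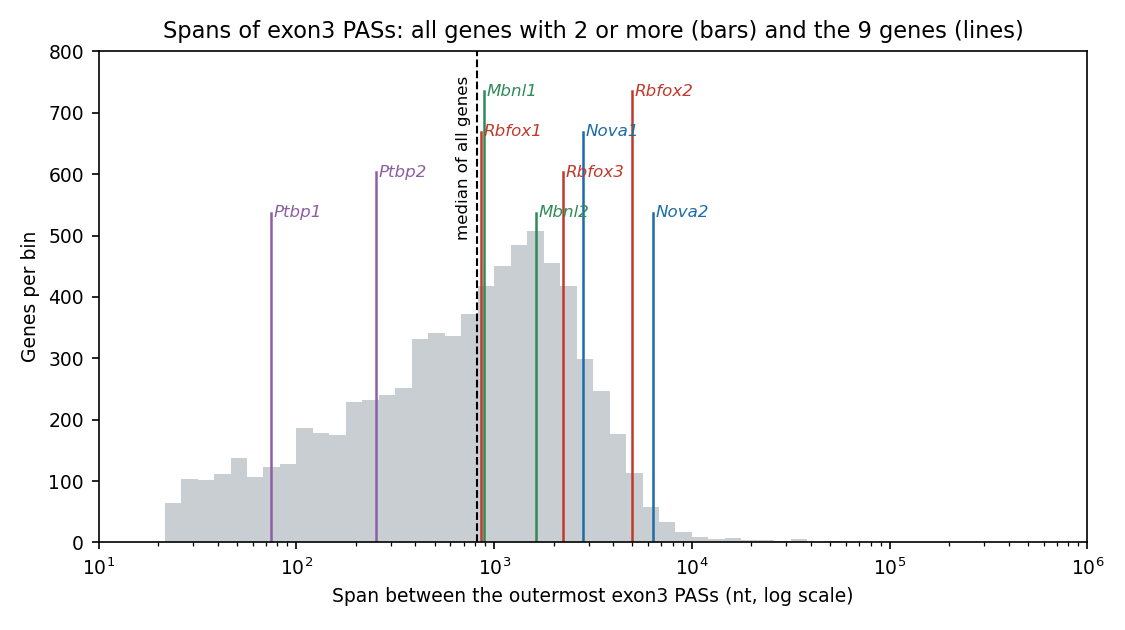
Distribution of the span between the outermost exon3 PASs (horizontal axis, nt, log scale) over the 7465 genes with at least 2 such PASs on a single strand (grey bars, genes per bin). Coloured lines mark the 9 genes by family and the dashed line the median of 817 nt, above which 7 of the 9 genes lie.

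Neighbouring exon3 PASs of the 9 genes were a median of 606 nt apart over 18 gaps, with quartiles of 177 and 1995 nt. Over the 16203 gaps of all genes, the median was 259 nt and the quartiles were 85 and 737 nt. Gaps over 1000 nt made up 6 of the 18 gaps, against 18.3% of all gaps, and they came from *Nova1*, *Nova2*, *Rbfox2* and *Rbfox3*. Gaps of 100 nt or less made up 4 of the 18, against 28.7% of all gaps, and came from *Rbfox2*, *Mbnl2*, *Ptbp1* and *Ptbp2*. *Rbfox2* was thus the only gene of the set with both a gap of 100 nt or less and gaps over 1000 nt. Gaps of the same gene share their end points and are not independent of each other.

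Other splicing regulators were set beside the 9 genes through a list of 31 genes, of which 29 were found, 2 of them under an older symbol. *Esrp1* and *Esrp2*, regulators known from epithelial cells, were the genes not found. Of the 28 listed genes with an exon3 PAS, 18 (64.3%) had 2 or more, and the median span of these 18 was 1134 nt. An intronic PAS was listed for 6 of the 29 genes (20.7%), led by *Celf1*, a regulator that often opposes the Mbnl proteins, with 8 intronic PASs. Both shares lay between those of the 9 genes and those of all listed genes. Long spans were not particular to the 9 genes. Spans over 2000 nt occurred in 7 of the 18 regulators measured (38.9%), against 4 of the 9 genes (44.4%), and the upper quartile of the spans was 3014 nt in the regulators and 2807 nt in the 9 genes. Of the intronic and exon3 entries of the regulators, 28.7% were intronic, closer to the 32.7% of the whole list than to the 3.57% of the 9 genes. These 27 intronic entries came from only 6 of the 29 genes, 8 of them from *Celf1* alone, so this share rests on few genes. No test was made between the sets, whose genes were chosen by name.

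The remaining paralogs belong to this list. *Mbnl3*, on the minus strand of chromosome X, had exon3 PASs at 48473627, 48473549 and 48466673. Its span of 6954 nt was the longest of the list and exceeded those of *Mbnl1* and *Mbnl2*. Nearly all of it was the gap of 6876 nt before the last PAS. *Ptbp3*, listed under its older symbol *Rod1* on the minus strand of chromosome 4, had exon3 PASs at 59488131, 59488066, 59486266 and 59484749. They were 65, 1800 and 1517 nt apart and spanned 3382 nt, so the short spans of *Ptbp1* and *Ptbp2* were not shared by *Ptbp3*.

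**Figure D3:**
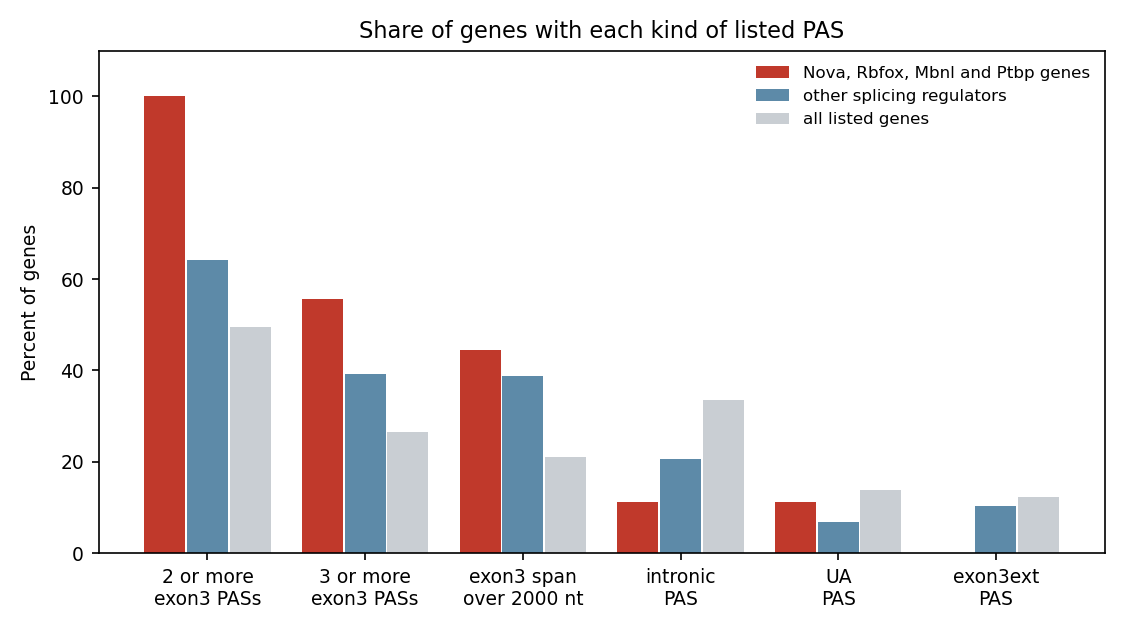
Percent of genes (vertical axis) with each kind of listed PAS, for the 9 *Nova*, *Rbfox*, *Mbnl* and *Ptbp* genes, the 29 other splicing regulators found in the list and all 16627 listed genes. The shares with several exon3 PASs are taken over genes with an exon3 PAS and the share of long spans over genes with a measured span. At least 2 exon3 PASs were listed for all 9 genes, against 49.5% of all genes, and an intronic PAS for 1 of 9, against 33.5%.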

How the data were processed

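RNA 3′ ends of 12 libraries were sequenced by 3′READS+. The authors mapped the reads with bowtie 2 (mm9 per the submitters' processing notes, version not given in the sources used here), called PASs from reads that began with 2 or more Ts absent from the genome, and state that PASs within 24 nt were joined. In the list, 1 of 16203 gaps between neighbouring exon3 sites was 24 nt or less, at 21 nt. They deposited 1 list of sites, each with its gene, genome position, strand and a region label, followed by 12 columns of read counts. Names of these columns match no sample label, and all 12 were left out. The results are therefore descriptions of the list, without tests between groups.

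The members and the comparison list were chosen with earlier results of these data known. The genes named are the 9 members, *Mbnl3*, *Ptbp3* and, of the comparison list, the genes with the longest exon3 span and with the most intronic PASs. Neighbouring genes, *Esrp1* and *Esrp2* were named after their values were seen. Positions were ordered by strand. Spans and gaps were measured between exon3 sites of a gene on a single chromosome and strand. A percent of genes with a shorter span counts strictly shorter ones. Steps were tested on simulated data and run with Python 3.11.15, pandas 2.3.3, numpy 2.4.6 and scipy 1.17.1, and figures drawn with matplotlib 3.10.9. Ensembl identifiers came from a table of gene names, matched by symbol for all 9 genes. The annotation at hand is GRCm38. Only 10.7% of 28075 exon3 sites, and 3 of the 27 of the members, lay within 5000 nt of their gene on it, so it gave names alone, and no exon or 3′UTR coordinates, sequence around the sites or protein identity between paralogs was analysed here.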

Additional observations from a re-analysis of the deposited data

How the results depend on the processing

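The 29 listed PASs of the 9 genes became 28 without the UA site and 25 with sites within 100 nt joined. At least 2 exon3 PASs were found in 9 genes with exon3ext sites added, in 9 when sites shared between genes were dropped, and in 8 with close sites joined. The shares of all listed genes under these settings were not computed, so these counts have no background beside them. With close sites joined, *Ptbp2* no longer had 3 exon3 PASs, so fewer of the 9 genes had 3 or more. The spans of all 9 genes were the same number of nt under both alternatives tried for them. Neither alternative could change them, since no exon3ext site and no shared exon3 site was listed for these genes. Joining close sites was not tried for the spans. It left *Ptbp1* with 1 exon3 PAS and so without a span, and the shortest span given above rests on that close pair. The intronic share of 3.57% was 3.45% over all region labels, 3.57% with exon3ext sites counted and 4.17% with close sites joined. It rests on a single PAS, and was 0% without *Nova1*. The number of genes with an intronic PAS was 1 for intron_Comp alone and 0 for intron_Skip alone. No paired analysis was possible because read counts could not be tied to samples by name, so no library could be paired, left out or compared. The read counts beside each site were not used here, so a rarely used PAS counts as much as a frequent one and the depth behind each site is not given.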
